A study of Gallus gallus with 12 samples.

Results

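Primordial germ cells (PGCs) taken from the gonads of chick embryos at E6.5 were compared with those taken at E4.5, in males (ZZ) and females (ZW) together. The comparison used 8 of the 12 libraries of the series, the 4 E6.5 libraries against the 4 E4.5 libraries, and looked for expression differences shared by both sexes. Each stage and sex had 2 libraries, and each library came from a pool of white Leghorn embryos whose gonadal cells were sorted by FACS for SSEA-1, a cell surface marker of early chicken PGCs. No group carried a genetic change or received a treatment, and the remaining 4 libraries, from circulating PGCs at E2.5, are given only as levels. Expression was deposited in TPM, which corrects read numbers for gene length and for the size of the library. A gene was tested when at least 4 of the 8 libraries held 1 TPM or more, which left 11610 of 24356 genes, of which 2470 had no name in the deposited table.

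Chicken PGCs arise outside the gonad, travel in the blood and settle in the gonadal ridge, where they multiply. They hold a germ cell programme of RNA-binding proteins such as DDX4 (the VASA homologue) and DAZL together with pluripotency factors such as NANOG, and germ cells of female embryos later enter meiosis in the ovary while those of males arrest. The piRNA pathway, active in germ cells, silences transposons through PIWI proteins and their Tudor-domain partners. Meiotic entry is marked by *STRA8*, a target of retinoic acid.

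The libraries held 7185031 to 13671015 reads on genes, the lowest 2 being the first pools of E4.5. Pearson's correlation of log2(TPM + 1) across the tested genes was 0.883 between the E4.5 ZZ pools and 0.870 between the E4.5 ZW pools, against 0.973 and 0.966 between the E6.5 pools. The first E4.5 pool of each sex correlated at 0.920 with the first pool of the other sex and at 0.805 to 0.913 with the other 6 libraries, which correlated at 0.921 to 0.976 among themselves. Genes are not independent replicates, so these are descriptions. The first principal component, with 52.3% of the variance, set the first E4.5 pools apart. In both of these pools, 2294 genes were over 2-fold higher than in the second pools of the same sex, and 606 were over 2-fold lower. Their median lengths were 2736 and 1988 bases, against 2289 bases over all tested genes. Since these pools stand apart from those of their own group, the E6.5 level of many genes is also given below against the first and against the second E4.5 pools.

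**Figure D1:**
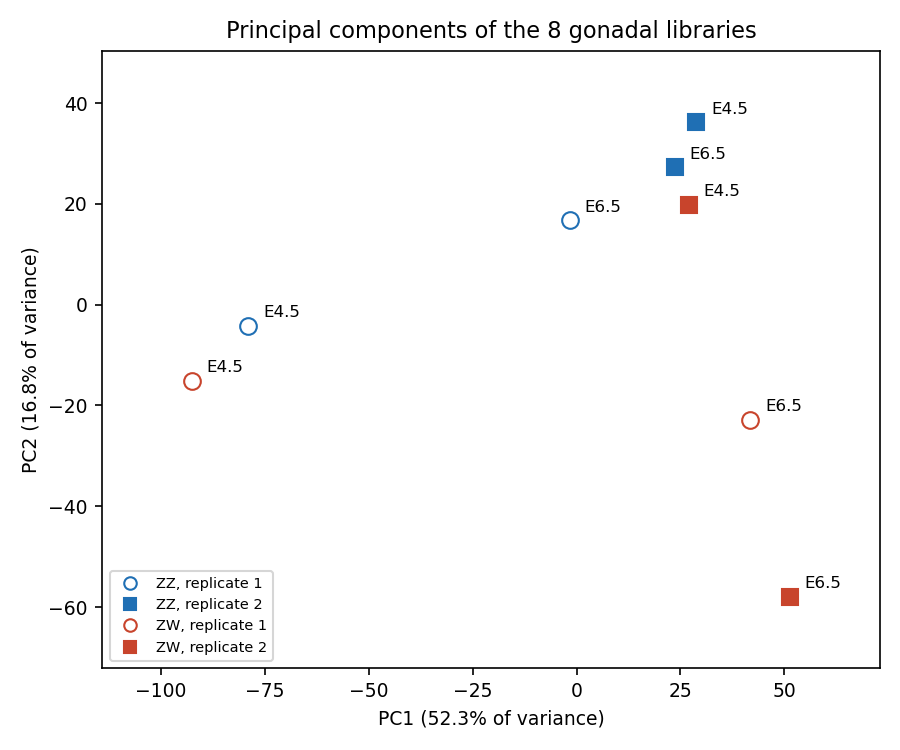
Principal components of log2(TPM + 1) over 11610 genes in the 8 gonadal libraries, with PC1 (52.3% of variance) against PC2 (16.8%), each point a library labelled by stage, coloured by sex and open for replicate 1. The first E4.5 pools of both sexes lie at PC1 scores of -78.9 and -92.5, while the other 6 libraries lie between -1.54 and 51.4.

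Each gene's stage difference was estimated with limma on log2(TPM + 1), with sex as a covariate, as E6.5 minus E4.5. No gene passed a Benjamini-Hochberg adjusted p under 0.05 in either direction (0% higher and 0% lower at E6.5), the smallest adjusted p being 0.471. At an unadjusted p under 0.05, 828 genes (7.13%) were higher and 381 (3.28%) lower. limma-voom on the recovered reads also called 0 genes, with 1092 at an unadjusted p under 0.05. Where the fit weighted each library by its spread, 34 genes (0.293%) passed as higher and 28 (0.241%) as lower. Among the 34, *RASSF6* could pass the minimum for testing only through E6.5, and gga-mir-1581 and gga-let-7b passed it mainly so. Their calls are therefore not a test. In this weighted fit the first E4.5 pools received weights of 0.209 and 0.154, and the other libraries weights of 0.830 to 4.45. Leaving out both first E4.5 pools also gave 0 calls in either direction, while leaving out both second pools, an alternative chosen after seeing the data, gave 1916 genes higher and 2755 lower. The replicates were separate pools of embryos, and the p-values take all libraries as independent. Deviations of the first E4.5 pools from their group means correlated at 0.67 between the sexes. The spread behind the p-values therefore also holds a shift that these pools share. This shift moves the E4.5 mean of both sexes alike, which a fit of independent libraries does not allow for.

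The libraries of the 2 stages did not overlap in either sex, with E6.5 higher, for 854 genes (7.36%), and with E6.5 lower for 397 (3.42%). With fewer libraries to separate, these counts were 1645 and 1742 without the second E4.5 ZZ pool, 1292 and 692 without the second E4.5 ZW pool, 1575 and 946 without the first E6.5 ZZ pool, and 1340 and 497 without the second E6.5 ZW pool, so that leaving out the second E4.5 ZZ pool turned the excess of higher genes. After median-of-ratios scaling of the TPM values the split was 592 higher and 593 lower, so that the excess of higher genes was not kept, although the median difference of all genes moved only from 0.00 to 0.03. Across all 4 libraries of each stage, irrespective of sex, 466 genes (4.01%) were higher at E6.5 in every library than in any E4.5 library, and 215 (1.85%) were lower. Among named genes with a log2 difference of 1 or more and no overlap in either sex, 181 were higher and 69 lower. The 15 of each direction with the smallest p are described next. Every one missed the threshold, with an adjusted p of 0.471. Of the tested genes, 20 were under 1 TPM in all E4.5 libraries and 10 in all E6.5 libraries. All 20 are among the 854 genes higher without overlap and all 10 among the 397 lower. An unadjusted p under 0.05 was found for 18 of the 20 and 9 of the 10. Such genes could pass the minimum only by being higher at the other stage, so their differences are given without a test. Of the 15 higher genes these are *RASSF6*, *TSPAN8*, *ENOX1* and *CH25H*, and of the 15 lower genes *RPS26*. Of the other higher genes, *C11orf52*, gga-mir-1581 and gga-let-7b were under 1 TPM in most E4.5 libraries. They passed the minimum mainly through E6.5, so their differences are also given without a test. In all value pairs, replicate 1 is given first.

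Among metabolic genes, *LDHA*, which encodes the lactate dehydrogenase subunit that turns pyruvate into lactate, had the smallest p of all genes (ENSGALG00000006300, chromosome 5, 12754029 to 12780561, in GRCg6a). Its level was 343 and 495 TPM in ZZ and 324 and 614 in ZW at E4.5, and 1001 and 1459 TPM in ZZ and 2339 and 1521 in ZW at E6.5. Every E6.5 library lay above every E4.5 library, with a log2 difference of 1.81 ± 0.27 (SE, unadjusted p = 7.31e-05). The difference was 1.55 in ZZ and 2.08 in ZW, and 2.18 against the first and 1.45 against the second E4.5 pools. In circulating PGCs at E2.5 the level was 217 to 284 TPM. *CYP17A1* encodes the steroid 17-alpha-hydroxylase (ENSGALG00000008121, chromosome 6, 24341471 to 24343997). It was measured at 1.15 and 1.67 TPM in ZZ and 2.07 and 0.681 in ZW at E4.5, and 9.44 and 7.91 TPM in ZZ and 5.75 and 5.65 in ZW at E6.5. The stages did not overlap, and the log2 difference of 1.79 ± 0.35 (SE, unadjusted p = 5.21e-04) was 1.65 against the first and 1.93 against the second E4.5 pools. These levels rest on 9 and 19 reads in ZZ and 15 and 8 in ZW at E4.5, and 102 and 104 in ZZ and 74 and 68 in ZW at E6.5. *ASRGL1*, an asparaginase, was at 4.9 and 9.53 TPM in ZZ and 3.34 and 8.08 in ZW at E4.5, and 15.4 and 16.4 TPM in ZZ and 38.1 and 96.1 in ZW at E6.5. Its log2 difference of 2.20 ± 0.54 (SE, unadjusted p = 0.00242) was larger in ZW than in ZZ (1.10 in ZZ and 3.30 in ZW), with the highest values in the E6.5 ZW libraries. *CH25H*, cholesterol 25-hydroxylase, had 0 and 0 reads in ZZ and 0 and 2 in ZW at E4.5, and 18 and 14 in ZZ and 28 and 12 in ZW at E6.5. Its level ranged over 0 to 0.174 TPM at E4.5 and 1.02 to 2.23 TPM at E6.5, and the log2 difference was 1.24.

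*PRC1*, a microtubule-bundling protein of cytokinesis, was at 11.3 and 18.2 TPM in ZZ and 6.27 and 7.55 in ZW at E4.5, and 32.8 and 30.1 TPM in ZZ and 32.1 and 18.5 in ZW at E6.5, with a log2 difference of 1.38 ± 0.31 (SE, unadjusted p = 0.00154). *TUBB6*, a beta-tubulin, was at 78 and 96.5 TPM in ZZ and 42.9 and 83.3 in ZW at E4.5, and 132 and 209 TPM in ZZ and 164 and 189.7 in ZW at E6.5. Both genes were higher in every E6.5 library than in any E4.5 library, and the *TUBB6* difference was 1.24 ± 0.28 (SE, unadjusted p = 0.00138). *SAV1*, the scaffold protein of the Hippo kinases, was at 43 and 54.1 TPM in ZZ and 39.5 and 55.4 in ZW at E4.5, and 102 and 116 TPM in ZZ and 123 and 68.2 in ZW at E6.5. It had the smallest difference of the 15, 1.06 ± 0.25 (SE, unadjusted p = 0.00196), with 1.26 against the first and 0.86 against the second E4.5 pools. *RASSF6*, a member of the Ras association domain family, was at 0 and 0.513 TPM in ZZ and 0 and 0.125 in ZW at E4.5, and 3.66 and 2.56 TPM in ZZ and 6.14 and 29.4 in ZW at E6.5. It was close to 0 in all E4.5 libraries and highest in the second E6.5 ZW pool, with a log2 difference of 2.76.

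*IL1RAPL2*, an interleukin-1 receptor accessory-like protein, was at 16.7 and 11.5 TPM in ZZ and 27.3 and 24.4 in ZW at E4.5, and 33.8 and 32.9 TPM in ZZ and 73.8 and 51 in ZW at E6.5, which gave a log2 difference of 1.21 ± 0.25 (SE, unadjusted p = 7.38e-04). ZZ and ZW differed in level at both stages, while the stage difference was 1.21 in ZZ and 1.22 in ZW. *TMEM128*, a transmembrane protein, was at 4.54 and 7.26 TPM in ZZ and 7.27 and 7.57 in ZW at E4.5, and 16 and 11.5 TPM in ZZ and 27.4 and 25.9 in ZW at E6.5, with a log2 difference of 1.41 ± 0.31 (SE, unadjusted p = 0.00123). *TSPAN8*, a tetraspanin, had the largest difference of the 15, 3.99. Its level was 0 and 0.40 TPM in ZZ and 0 and 0.259 in ZW at E4.5, and 25 and 1.97 TPM in ZZ and 12.9 and 104 in ZW at E6.5. The E6.5 libraries varied widely, and the lowest of them was the second ZZ pool. *ENOX1*, an oxidase of the cell surface, was at 0.0736 and 0.355 TPM in ZZ and 0.16 and 0.492 in ZW at E4.5, and 1.92 and 2.46 TPM in ZZ and 2.24 and 4.13 in ZW at E6.5, with a log2 difference of 1.52. *C11orf52* ranged over 0 to 1.52 TPM at E4.5 and 2.34 to 19 TPM at E6.5, with a log2 difference of 2.31. *TSPAN8*, *RASSF6*, *ASRGL1*, *C11orf52*, *ENOX1* and the locus gga-mir-1581 were all highest in the second E6.5 ZW pool. The summed liver and mesonephros markers were also highest there, and the part of such cells in these levels was not tested. The last 2 of the 15 were the miRNA loci gga-mir-1581 and gga-let-7b, with 0 to 1 read per library at E4.5 and 1 to 4 at E6.5. cDNA was primed on poly(A), so these are reads on the precursor loci and not on mature miRNAs, and these counts are close to the floor of 3 reads.

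**Figure D2:**
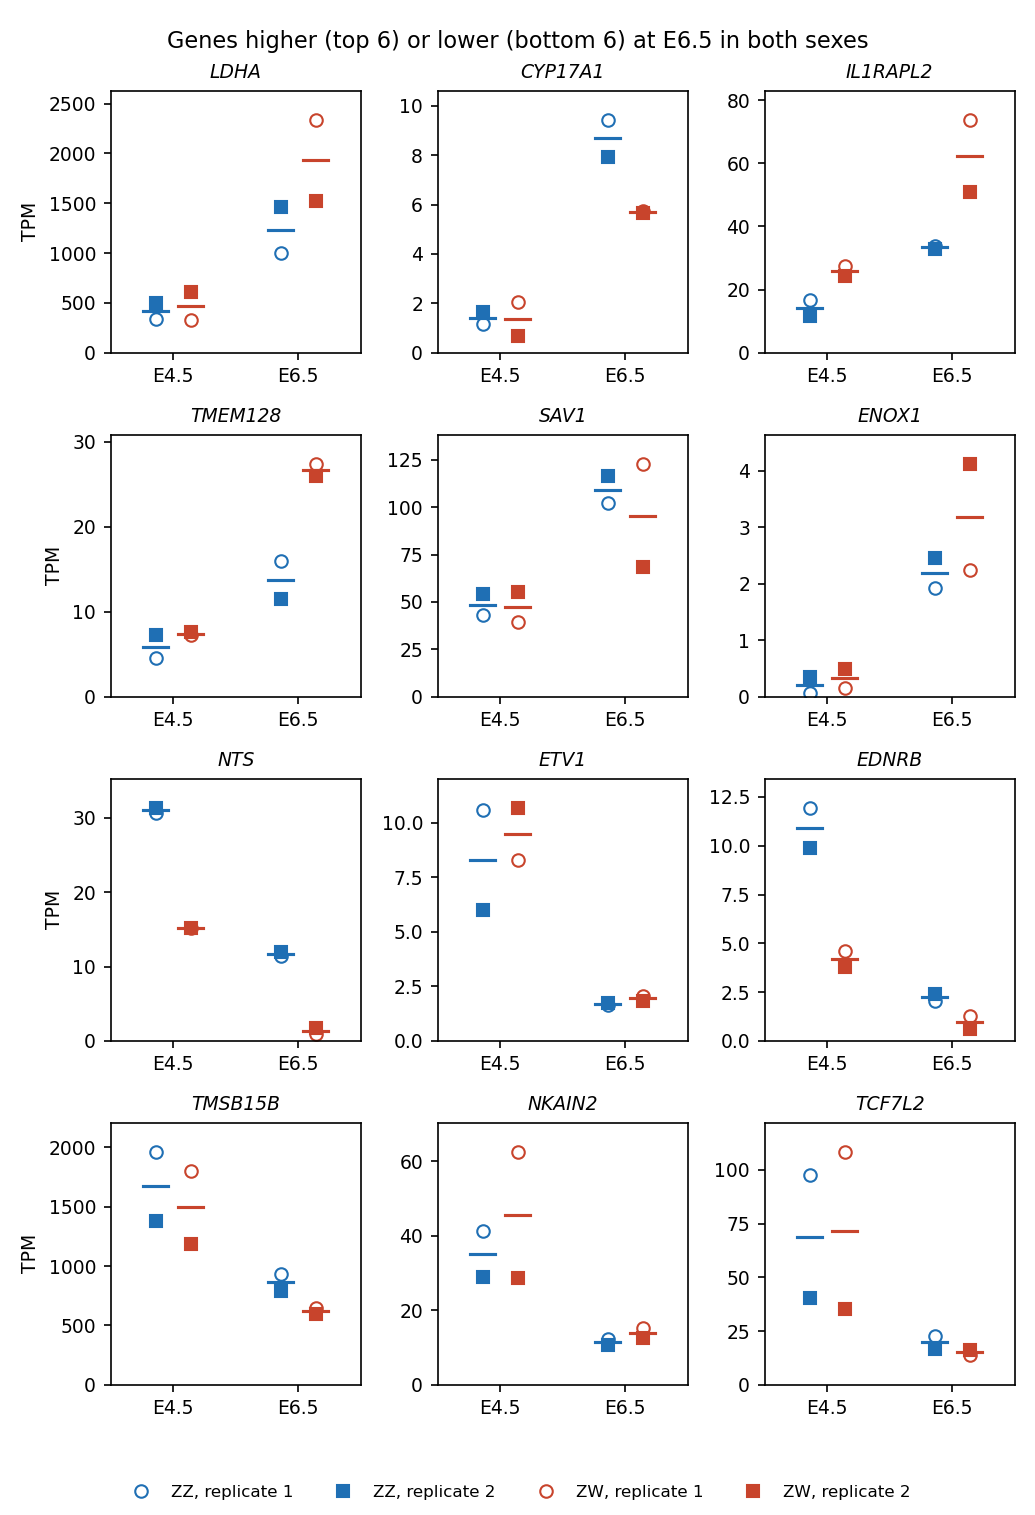
Expression (TPM, linear axis from 0) of 12 genes in each library at E4.5 and E6.5, with ZZ in blue, ZW in red, open circles for replicate 1, squares for replicate 2 and bars for the mean of each pair. *LDHA*, *CYP17A1*, *IL1RAPL2*, *TMEM128*, *SAV1* and *ENOX1* were higher, and *NTS*, *ETV1*, *EDNRB*, *TMSB15B*, *NKAIN2* and *TCF7L2* lower, in all 4 E6.5 libraries than in any E4.5 library, although no gene passed the adjusted threshold. *ENOX1* was under 1 TPM in all E4.5 libraries, so it could pass the minimum for testing only through E6.5.

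Among the genes lower at E6.5, *ETV1* and *TCF7L2* encode transcription factors. *ETV1*, of the ETS family (ENSGALG00000035504, chromosome 2, 27273383 to 27337505), was at 10.6 and 5.98 TPM in ZZ and 8.29 and 10.7 in ZW at E4.5, and 1.63 and 1.72 TPM in ZZ and 2.05 and 1.83 in ZW at E6.5. All E6.5 libraries lay below all E4.5 libraries, with a log2 difference of -1.79 ± 0.33 (SE, unadjusted p = 3.51e-04). The difference was -1.75 in ZZ and -1.83 in ZW, and -1.89 against the first and -1.69 against the second E4.5 pools, and the E2.5 level was 15.2 to 35.3 TPM. *TCF7L2*, a nuclear effector of Wnt signalling (ENSGALG00000008883, chromosome 6, 28006744 to 28178462), was at 97.4 and 40.5 TPM in ZZ and 108 and 35.2 in ZW at E4.5, and 22.9 and 16.9 TPM in ZZ and 14 and 16.4 in ZW at E6.5. Its log2 difference was -1.80 ± 0.40 (SE, unadjusted p = 0.00137), with -2.51 against the first and -1.09 against the second E4.5 pools, so that the difference was smaller against the second pools. The E2.5 libraries were at 62 to 91.9 TPM.

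Several of the lower genes encode signals and receptors. *NTS*, the precursor of the peptide neurotensin, was at 30.7 and 31.4 TPM in ZZ and 15.2 and 15.2 in ZW at E4.5, and 11.4 and 12 TPM in ZZ and 0.959 and 1.79 in ZW at E6.5. The pools of each sex were close to each other at both stages, and the log2 difference was -2.06 ± 0.37 (SE, unadjusted p = 3.03e-04). ZZ libraries were above ZW libraries at both stages, with a stage difference of -1.34 in ZZ and -2.79 in ZW. Against the first and the second E4.5 pools the difference was nearly equal (-2.06 against the first and -2.07 against the second E4.5 pools). *EDNRB*, endothelin receptor type B, was at 11.9 and 9.9 TPM in ZZ and 4.6 and 3.78 in ZW at E4.5, and 2.05 and 2.39 TPM in ZZ and 1.29 and 0.615 in ZW at E6.5, with a log2 difference of -1.66 ± 0.33 (SE, unadjusted p = 5.88e-04). As with *NTS*, ZZ was above ZW at E4.5. *RGS9*, a regulator of G-protein signalling, was at 4.8 and 8.13 TPM in ZZ and 10.8 and 8.23 in ZW at E4.5, and 1.7 and 2.63 TPM in ZZ and 2.69 and 1.78 in ZW at E6.5, with a log2 difference of -1.46 ± 0.35 (SE, unadjusted p = 0.00207). *PLPP1*, a lipid phosphate phosphatase of the Z chromosome, was at 134 and 139 TPM in ZZ and 46.4 and 63.5 in ZW at E4.5, and 47.8 and 47.2 TPM in ZZ and 34.4 and 24 in ZW at E6.5. The sexes differed in level, so that the stages overlapped when sex was ignored, while within each sex E6.5 was lower, with a log2 difference of -1.20 ± 0.24 (SE, unadjusted p = 6.12e-04). Its E2.5 level was 189 to 271 TPM. *GJA1*, the gap junction protein connexin 43, was at 47 and 19.5 TPM in ZZ and 20.5 and 13.3 in ZW at E4.5, and 17.8 and 12.8 TPM in ZZ and 3.28 and 3.59 in ZW at E6.5. The first E6.5 ZZ pool lay above the second E4.5 ZW pool, and the log2 difference was -1.47 ± 0.39 (SE, unadjusted p = 0.00386).

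The remaining lower genes ranged from abundant to barely detected. *TMSB15B*, an actin-binding thymosin, was the most abundant of them, at 1961 and 1380.4 TPM in ZZ and 1799.8 and 1186 in ZW at E4.5, and 935 and 793 TPM in ZZ and 651 and 599.5 in ZW at E6.5. Its log2 difference was -1.08 ± 0.20 (SE, unadjusted p = 3.33e-04), with -1.36 against the first and -0.80 against the second E4.5 pools. *HSPB9*, a small heat shock protein, was at 375 and 171 TPM in ZZ and 348 and 100.02 in ZW at E4.5, and 79.9 and 46.9 TPM in ZZ and 49.6 and 27.8 in ZW at E6.5, with a log2 difference of -2.16 ± 0.43 (SE, unadjusted p = 5.66e-04). It was higher in the first than in the second E4.5 pools and stood at 5.34 to 11.7 TPM at E2.5, so that E4.5 held the highest levels of the 3 stages. *NKAIN2*, which interacts with the sodium pump, was at 41.2 and 28.9 TPM in ZZ and 62.5 and 28.8 in ZW at E4.5, and 12.3 and 10.6 TPM in ZZ and 15.3 and 12.6 in ZW at E6.5, with a log2 difference of -1.53 ± 0.31 (SE, unadjusted p = 6.53e-04). *FABP6*, a bile acid-binding protein, ranged over 9.19 to 17.7 TPM at E4.5 and 2.79 to 6.01 TPM at E6.5, and *CRIP1*, a LIM-domain protein, over 10.3 to 19.8 TPM at E4.5 and 3.96 to 7.0 TPM at E6.5. Their log2 differences were -1.45 and -1.25. The other 3 rest on few reads. The locus gga-mir-367 had 19 and 12 reads in ZZ and 10 and 6 in ZW at E4.5, and 4 and 3 in ZZ and 0 and 1 in ZW at E6.5, and a 5.8S rRNA locus had 24 and 18 reads in ZZ and 24 and 28 in ZW at E4.5, and 9 and 8 in ZZ and 6 and 4 in ZW at E6.5. The locus named *RPS26* had 1 to 12 reads per library, far below the other ribosomal protein genes. The authors counted uniquely mapped reads, so any reads that also match a near-identical copy are not in these counts.

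In the fit with library weights, *LDHA* had the smallest adjusted p of these 30 genes, 0.011, followed by *CYP17A1*, *IL1RAPL2*, *NTS*, gga-mir-367 and the 5.8S rRNA locus at 0.017. In that fit 27 of the higher calls and 21 of the lower calls did not overlap between stages in either sex. The 27 include *RASSF6*, gga-mir-1581 and gga-let-7b, whose differences are given above without a test.

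**Figure D3:**
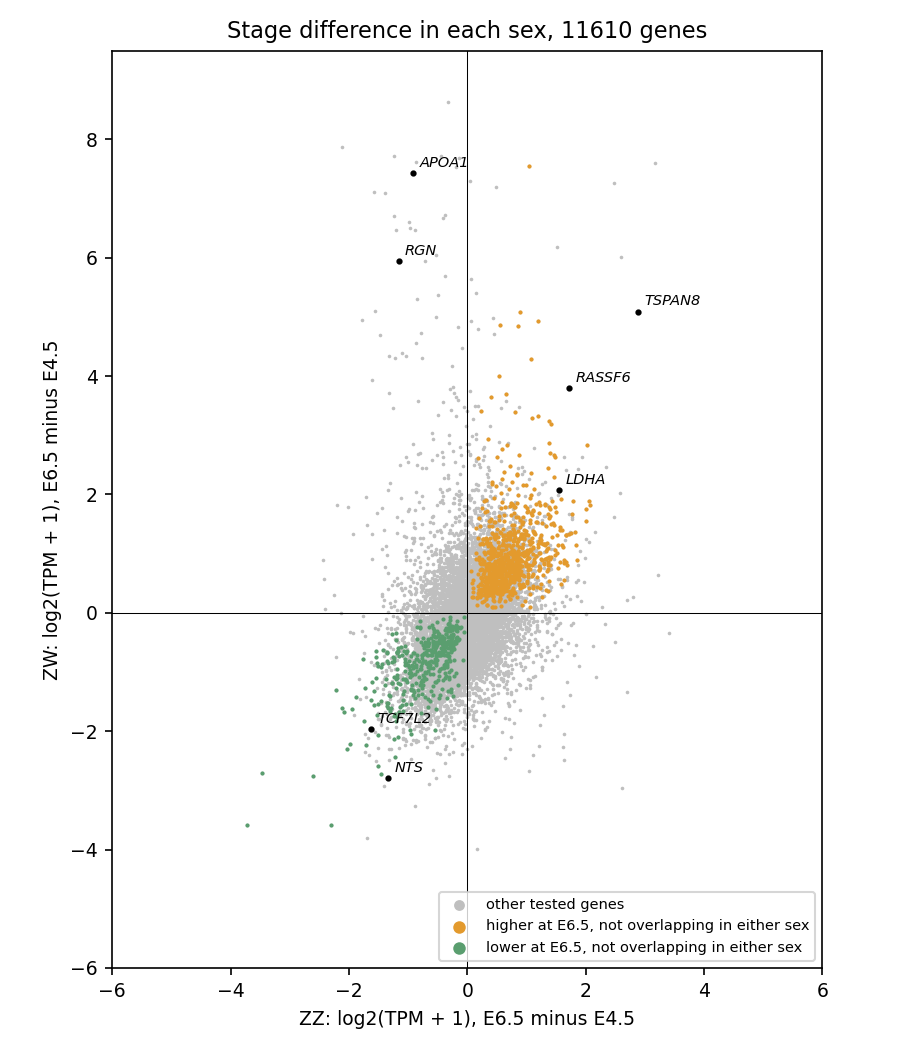
Stage difference in ZZ (horizontal) and in ZW (vertical), both as E6.5 minus E4.5 on the log2(TPM + 1) scale, for 11610 genes, each point a gene, with the 854 genes higher and the 397 lower without overlap in either sex in colour. *TSPAN8*, *RASSF6* and *LDHA* lie in the upper right and *NTS* and *TCF7L2* in the lower left, while *RGN* and *APOA1* lie above 0 in ZW and below 0 in ZZ. Among the ZZ libraries, *RGN* and *APOA1* were highest in the first E4.5 pool, and the others lay at 43.7 to 52.5 and 4.79 to 12.6 TPM.

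The difference of the sexes' stage differences was tested as an interaction. No gene passed (0%), the smallest adjusted p being 0.515, and 241 genes (2.08%) had an unadjusted p under 0.05. limma-voom gave 0 and 192. Over all tested genes, the stage differences in ZZ and in ZW had, as a description across genes, a Pearson correlation of 0.401, which was 0.587 when only the first E4.5 pools were used and 0.163 with only the second. Of 412 genes with a difference of 1 or more in size in both sexes, 350 (85.0%) had the same sign. Both differences use the first E4.5 pools, which share a shift, so this share of equal signs also holds that shift. It was not computed with only the second pools. The 5 genes with the smallest interaction p were ENSGALG00000041612, gga-mir-202, *GSTA4*, ENSGALG00000016570 and *TTC36*. *GSTA4*, a glutathione transferase, was at 18.6 and 3.32 TPM in ZZ and 0.249 and 1.23 in ZW at E4.5, and 6.33 and 1.1 TPM in ZZ and 136 and 894 in ZW at E6.5, and its interaction was 8.94 ± 1.498 (SE, unadjusted p = 2.60e-04). The locus gga-mir-202 had 0 to 5 reads per library, and its interaction was in the other direction (-5.56).

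The female-biased genes of the study's RT-qPCR that are described here had the ZW pattern of *GSTA4*. *RGN*, the calcium-binding protein regucalcin, was at 279 and 43.7 TPM in ZZ and 30.1 and 62 in ZW at E4.5, and 45.9 and 52.5 TPM in ZZ and 1181 and 6262 in ZW at E6.5. *APOA1*, the main protein of high-density lipoprotein, was at 73.3 and 4.79 TPM in ZZ and 3.96 and 7.1 in ZW at E4.5, and 12.6 and 7.9 TPM in ZZ and 398 and 3022 in ZW at E6.5. Both were higher in the E6.5 ZW libraries than in the other 6 libraries, while the E6.5 ZZ libraries were within the E4.5 range. Their stage differences were -1.16 in ZZ and 5.94 in ZW for *RGN* and -0.91 in ZZ and 7.44 in ZW for *APOA1*. *HPGDS*, *UGT1A1* and *UPB1* had stage differences of 5.94 to 7.71 in ZW and -0.98 to -0.44 in ZZ. In ZZ these 3 genes were highest in the first E4.5 pool, at 14.1, 6.46 and 14.7 TPM. The other ZZ libraries of both stages were at 1.2 to 4.97, 0.308 to 0.911 and 1.96 to 2.99 TPM. *RGN* and *APOA1* were also highest in that pool among the ZZ libraries, so the negative ZZ differences rest on 1 library. *GATM* and *CYB5A* had differences of 0.19 in ZZ and 4.80 in ZW and of -0.02 in ZZ and 3.16 in ZW. None of these 7 genes was free of overlap in both sexes. These libraries also held the highest sums over the liver and mesonephros lists. The 12 liver genes in the table summed to 465 and 3861 TPM in the E6.5 ZW libraries and to 8.76 to 105 TPM in the other 6. *APOA1* is itself in this list and made up most of it. The 11 genes without it summed to 67.2 and 839 TPM against 4.80 to 31.9 TPM, and the 10 without *APOA1* and *TTR*, the thyroid hormone carrier transthyretin, to 23.4 and 179 TPM against 4.20 to 22.8 TPM. The 12 mesonephros and proximal tubule genes summed to 64.1 and 313 TPM against 3.33 to 21.2 TPM. *HNF4A*, a transcription factor of liver and kidney, was at 2.56 and 12.9 TPM in the E6.5 ZW libraries and at 0 in the other 6, whereas *ALB*, the albumin gene, was at 0 to 1.74 TPM at E4.5 and 0.224 to 2.63 TPM at E6.5. Members of the mesonephros list went different ways. *CUBN* (2.69 and 17.8 TPM), *SLC5A1* (28.2 and 90.6) and *SLC22A7* (8.28 and 23.9) were highest in the E6.5 ZW libraries. *LRP2* was at 0.623 and 3.36 TPM there and highest, at 4.48 TPM, in the first E4.5 ZZ pool. *GATA3* and *AQP1* were at most 0.565 and 0.285 TPM in any of the 8 libraries. The part of such cells in the ZW values was not tested. In these sorted pools, fewer cells of a type and less RNA per cell cannot be told apart.

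The germ cell label was checked on its defining genes. *DAZL* was at 1621 and 2412 TPM in ZZ and 1699 and 2525 in ZW at E4.5, and 2123 and 2507 TPM in ZZ and 2229 and 1747 in ZW at E6.5, and *DDX4* at 378 and 294 TPM in ZZ and 320.3 and 165 in ZW at E4.5, and 339 and 405 TPM in ZZ and 302 and 135 in ZW at E6.5. *NANOG* was at 159.97 and 505 TPM in ZZ and 122 and 390.1 in ZW at E4.5, and 341 and 654 TPM in ZZ and 465 and 328 in ZW at E6.5. All 3 genes were abundant in every library and overlapped between stages, with log2 differences of 0.08, -0.02 and 0.78, and all 3 directions turned with the choice of libraries, *DDX4* also under median-of-ratios scaling. The *NANOG* difference was 1.61 against the first and -0.05 against the second E4.5 pools. *KIT*, a receptor of migrating germ cells in mammals, was at 80.3 and 22.1 TPM in ZZ and 99 and 25.8 in ZW at E4.5, and 35.3 and 34.2 TPM in ZZ and 35.2 and 25.2 in ZW at E6.5. Among the gonadal libraries it was highest in the first E4.5 pools, and its difference was -1.44 against the first and 0.41 against the second E4.5 pools. *PRDM14*, a repressor that maintains the germ cell state in mammals, was at 4.47 and 3.84 TPM in ZZ and 4.24 and 1.87 in ZW at E4.5, and 0.71 and 2.0 TPM in ZZ and 1.7 and 1.18 in ZW at E6.5, with a log2 difference of -0.93 ± 0.37 (SE, unadjusted p = 0.0322) and no overlap within either sex.

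Of the 14 tested genes of germ cell identity and pluripotency, 3 were lower at an unadjusted p under 0.05 and 0 were higher, with a median difference of -0.40, against 0.00 over all genes. This and the following list counts stand against 7.13% higher and 3.28% lower over all tested genes, and counts of list genes without overlap in either sex against 7.36% and 3.42%. The 3 were *PRDM14*, *LIN28A* and *SALL4*. *LIN28A*, an RNA-binding protein that blocks let-7 maturation, was at 19.1 and 3.11 TPM in ZZ and 36.5 and 2.82 in ZW at E4.5, and 1.37 and 1.22 TPM in ZZ and 2.4 and 0.95 in ZW at E6.5. All E6.5 libraries lay below all E4.5 libraries with a log2 difference of -2.10 ± 0.73 (SE, unadjusted p = 0.0175), and it was larger against the first pools (-3.50 against the first and -0.70 against the second E4.5 pools). *SALL4*, a zinc finger factor of stem and germ cells, was at 86.8 and 24.5 TPM in ZZ and 118 and 30.1 in ZW at E4.5, and 42.7 and 20.1 TPM in ZZ and 19.1 and 13.6 in ZW at E6.5, with -2.17 against the first and -0.31 against the second E4.5 pools. The list's median was -1.16 against the first pools and -0.08 against the second.

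Of 17 tested genes of meiotic entry and synapsis, 5 were higher at an unadjusted p under 0.05 and 0 lower, with a median of 0.41, and 4 did not overlap in either sex. *STRA8* was at 7.37 and 28.7 TPM in ZZ and 7.16 and 28.9 in ZW at E4.5, and 34.5 and 52.9 TPM in ZZ and 44.8 and 40.8 in ZW at E6.5, and the 2 stages did not overlap. Its log2 difference was 1.48 ± 0.49 (SE, unadjusted p = 0.0138), being 1.47 in ZZ and 1.49 in ZW. Against the second pools it was much smaller (2.40 against the first and 0.56 against the second E4.5 pools). *TEX12*, a component of the central element of the synaptonemal complex, was at 3.54 and 17.1 TPM in ZZ and 5.66 and 23.8 in ZW at E4.5, and 40.1 and 34.6 TPM in ZZ and 57.2 and 34.4 in ZW at E6.5, with a log2 difference of 1.95 ± 0.52 (SE, unadjusted p = 0.00426). It too was lowest in the first E4.5 pools, and the difference was 2.92 against the first and 0.98 against the second E4.5 pools. *HORMAD1*, an axis protein of meiotic chromosomes, was at 46.4 and 28.1 TPM in ZZ and 71.9 and 47.1 in ZW at E4.5, and 77.9 and 87.4 TPM in ZZ and 101 and 63.1 in ZW at E6.5, with a log2 difference of 0.81 ± 0.29 (SE, unadjusted p = 0.0197). Unlike the preceding genes it differed more from the second pools (0.48 against the first and 1.13 against the second E4.5 pools), although the ZW pools overlapped. *MEIOC* and *HSF2BP* had differences of 0.98 and 0.50, where *MEIOC* was under 1 TPM in all E4.5 libraries and at most at 2.96 TPM. *MEIOC* could pass the minimum only by being higher at E6.5, so its place in the counts of 5 and 4 is not a test. *DMC1* and *SPO11*, which act in recombination, were at 0.656 to 5.55 TPM at E4.5 and 1.85 to 6.35 TPM at E6.5 and at 0.302 to 7.04 TPM at E4.5 and 1.28 to 2.8 TPM at E6.5, with overlapping stages.

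The piRNA list gave 5 of 16 genes higher at an unadjusted p under 0.05 and 0 lower, with 14 of 16 differences above 0 and a median of 0.44. *MOV10L1*, the RNA helicase that feeds piRNA precursors to PIWI proteins, was at 22.9 and 90.2 TPM in ZZ and 22.6 and 104 in ZW at E4.5, and 91.9 and 154 TPM in ZZ and 189.6 and 131 in ZW at E6.5. Its log2 difference was 1.52 ± 0.53 (SE, unadjusted p = 0.0171), and within each sex every E6.5 pool was above every E4.5 pool. Against the first pools it was larger than against the second (2.54 against the first and 0.50 against the second E4.5 pools). *TDRD9*, a Tudor-domain helicase, had 1.07 (1.72 against the first and 0.42 against the second E4.5 pools), and *ASZ1*, a protein of the germ granule, 0.68. *TDRD5*, at 48.6 and 27.4 TPM in ZZ and 43.4 and 45.9 in ZW at E4.5, and 50.3 and 58.6 TPM in ZZ and 81.4 and 57.6 in ZW at E6.5, had a log2 difference of 0.58 ± 0.25 (SE, unadjusted p = 0.0426) with 0.40 against the first and 0.76 against the second E4.5 pools. *TDRKH* was at 4.29 to 10.5 TPM at E4.5 and 7.96 to 18 TPM at E6.5, with a log2 difference of 0.84. *PIWIL1*, the PIWI protein itself, differed by 0.07.

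**Figure D4:**
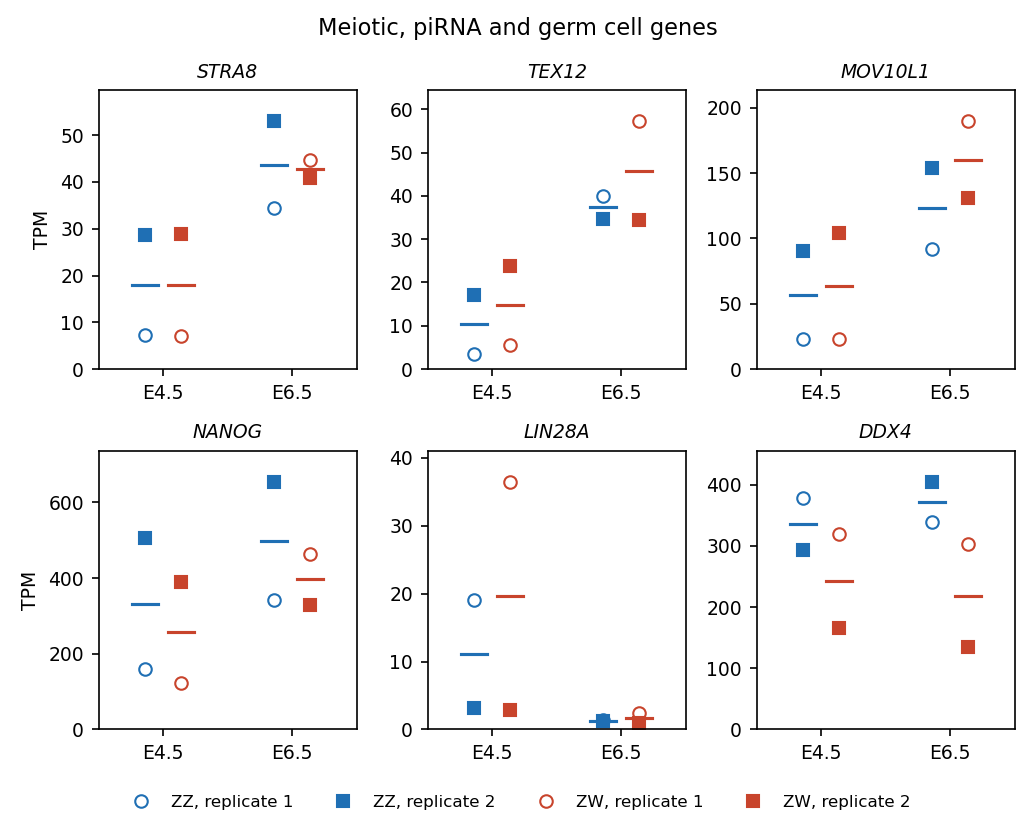
Expression (TPM, linear axis from 0) of 6 germ cell genes in each library, with ZZ in blue, ZW in red, open circles for replicate 1, squares for replicate 2 and bars for the mean of each pair. *STRA8*, *TEX12* and *MOV10L1* were lowest and *LIN28A* highest in the first E4.5 pools, with the second E4.5 pools nearer to E6.5, and *NANOG* and *DDX4* overlapped between stages.

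In glycolysis, 3 of 15 tested genes were higher at an unadjusted p under 0.05 and 0 lower, with a median of 0.17. Besides *LDHA* these were *GAPDH* (0.60) and *GPI* (0.63), whose stages overlapped. *GAPDH* was highest in the second E6.5 ZW pool, with a difference of 0.22 in ZZ and 0.98 in ZW. The glycolysis median was 0.04 in ZZ and 0.33 in ZW, against 0.04 and -0.05 over all tested genes. In oxidative phosphorylation, 4 of 36 were higher and 5 lower. *SDHA*, the catalytic subunit of succinate dehydrogenase, was at 61.3 and 116 TPM in ZZ and 34.5 and 85.3 in ZW at E4.5, and 118 and 162 TPM in ZZ and 181 and 306 in ZW at E6.5, with a log2 difference of 1.40 ± 0.41 (SE, unadjusted p = 0.00675). It was highest in the second E6.5 ZW pool, and differed by 1.95 from the first and 0.85 from the second E4.5 pools. *NDUFA10* (0.70), *UQCRC2* (0.57) and *SDHB* (0.47) were also higher, whereas the small subunits *COX7C* (-0.61), *NDUFA1* (-0.55), *COX5A* (-0.53), *NDUFC2* (-0.43) and *COX6A1* (-0.41) were lower. In the cell cycle list, 4 of 34 were higher and 0 lower, with a median of -0.04. *GINS2*, a subunit of the replicative helicase, was at 9.67 and 24.7 TPM in ZZ and 7.13 and 12.1 in ZW at E4.5, and 30.6 and 36.7 TPM in ZZ and 29 and 28.2 in ZW at E6.5, with a log2 difference of 1.29 ± 0.35 (SE, unadjusted p = 0.00434). *CDC45*, *CDC20* and *AURKA* had differences of 0.54, 0.71 and 0.89, with overlapping stages.

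Cytosolic ribosomal proteins form the core machinery of translation. Of 62 tested genes, 20 were lower at an unadjusted p under 0.05, 0 were higher, and 3 had a difference above 0. The median was -0.35, being -0.23 in ZZ and -0.52 in ZW, and -0.56 against the first and -0.17 against the second E4.5 pools. The list summed to 88748 to 118848 TPM at E4.5 and to 69435 to 100436 TPM at E6.5, and the first E6.5 ZZ pool held the highest E6.5 value. *RPS16* was at 4566 and 5473 TPM in ZZ and 4461 and 4966 in ZW at E4.5, and 4566 and 3445 TPM in ZZ and 2793 and 2907 in ZW at E6.5, with a log2 difference of -0.53 ± 0.17 (SE, unadjusted p = 0.011). Of the 62 genes, 6 were lower and 1 was higher without overlap in either sex. *RPS26* is among the 6 lower genes and among the 20, and it could pass the minimum only by being higher at E4.5. TPM is a share of the library, so a list of this weight moves with the rest of the library.

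In the signalling lists, *ID1*, a target of BMP signalling, was at 305 and 238 TPM in ZZ and 242 and 147 in ZW at E4.5, and 209 and 147 TPM in ZZ and 109 and 95.5 in ZW at E6.5, with a log2 difference of -0.75 ± 0.23 (SE, unadjusted p = 0.00859). *TGFB1* had -1.29 at a level of 1.83 to 5.91 TPM at E4.5 and 0.193 to 1.61 TPM at E6.5. Its difference was -1.89 against the first and -0.68 against the second E4.5 pools. It was under 1 TPM in most E6.5 libraries and passed the minimum mainly through E4.5, so its place in the list count below is not a test. *ID1* and *TGFB1* were the 2 of 25 genes of the TGF-beta, BMP and activin list that were lower at an unadjusted p under 0.05, and 0 were higher. In the Wnt list *TCF7L2* alone, of 24 genes tested, had such a p, and it was lower. Among integrins, cadherins and claudins, 2 of 14 were lower. *EPCAM*, a cell adhesion molecule abundant in these cells, was at 606 and 1193 TPM in ZZ and 618 and 1027 in ZW at E4.5, and 466 and 568 TPM in ZZ and 499 and 562 in ZW at E6.5, with a log2 difference of -0.66 ± 0.25 (SE, unadjusted p = 0.0263). All E6.5 libraries were below all E4.5 libraries, and the level was nearer to the first than to the second E4.5 pools (-0.23 against the first and -1.08 against the second E4.5 pools). *ITGA4*, the integrin alpha-4 chain, was at 11.3 and 11.2 TPM in ZZ and 28.3 and 12.3 in ZW at E4.5, and 7.51 and 6.05 TPM in ZZ and 7.77 and 3.9 in ZW at E6.5, with a log2 difference of -1.13 ± 0.39 (SE, unadjusted p = 0.0178). Among migration genes, 1 of 9 was higher, *PDGFA*, a ligand of the PDGF receptor, at 17.8 and 7.79 TPM in ZZ and 9.3 and 7.13 in ZW at E4.5, and 30.5 and 24.3 TPM in ZZ and 19.4 and 12.6 in ZW at E6.5, with a log2 difference of 0.999 ± 0.34 (SE, unadjusted p = 0.0153).

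In the retinoic acid list, 1 of 11 tested genes was higher at an unadjusted p under 0.05 and 0 lower. This gene was *ALDH1A1*, a retinaldehyde dehydrogenase. It was at 2.29 and 0.17 TPM in ZZ and 0 and 0.206 in ZW at E4.5, and 17.3 and 0.737 TPM in ZZ and 28.6 and 212 in ZW at E6.5, with a log2 difference of 3.85. Most E4.5 libraries were under 1 TPM, so *ALDH1A1* passed the minimum mainly through E6.5 and its place in this count is not a test. The ZZ stages overlapped, and the highest value was that of the second E6.5 ZW pool, which also held the highest liver and mesonephros sums. Of the receptors, *RARB* was at 16.9 and 28 TPM in ZZ and 18.8 and 26.6 in ZW at E4.5, and 22.3 and 29.5 TPM in ZZ and 23.3 and 29.8 in ZW at E6.5, with a difference of 0.23 and overlapping stages. *RARA* and *RARG* did not reach the minimum for testing, at 0 to 2.38 TPM and at 0 to 0.21 TPM. In the immediate early and stress list, 2 of 21 were higher. *EGR1*, an immediate early transcription factor, was at 1.74 and 3.41 TPM in ZZ and 1.69 and 2.32 in ZW at E4.5, and 10.6 and 5.6 TPM in ZZ and 5.03 and 4.19 in ZW at E6.5, with a log2 difference of 1.12 ± 0.36 (SE, unadjusted p = 0.0119), and *HSPA2*, a heat shock protein abundant in germ cells, at 681 to 953 TPM at E4.5 and 1084 to 1581 TPM at E6.5, with 0.52. In cholesterol synthesis, *FDPS* (0.55) was higher and *PMVK* (-0.96) lower, of 18 genes. Of 5 fucosyltransferases, *FUT8* (1.07) was higher, with 1.57 against the first and 0.58 against the second E4.5 pools. *FUT8* was highest in the second E6.5 ZW pool. No gene had an unadjusted p under 0.05 among 8 genes of DNA methylation, 17 of FGF and insulin signalling, 25 histone modifiers, 12 of the extracellular matrix and 4 of endothelium.

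The authors stained sorted cells for the VASA homologue protein and reported nearly all of them as positive at each stage and in each sex. Markers of other cells that a gonadal sort could hold were summed. The 22 genes of gonadal somatic cells in the table summed to 107 and 86.9 TPM in the first E4.5 pools of ZZ and ZW. In the second E4.5 pools they summed to 16.8 and 18.1 TPM, and at E6.5 to 26.8 to 58.5 TPM. Of the 5 tested, *CYP17A1* was the one with an unadjusted p under 0.05. The gonadal markers *GATA4*, *NR5A1* and *WT1* were at most 0.35, 0.52 and 1.02 TPM. Others of the list were higher. *SOX4* was at 41.6 and 39.9 TPM in the first E4.5 pools and at 3.11 to 9.85 TPM in the other 6 libraries. *EMX2* and *PAX2* reached 6.64 and 8.17 TPM in the second E6.5 ZW pool, and *LHX9* reached 2.75 TPM in the second E4.5 ZW pool. *CYP11A1* and *STAR*, which act before *CYP17A1* in steroid synthesis, were at most 1.25 and 1.43 TPM. *CYP19A1*, the aromatase of the ovary, was at 0.98 and 1.63 TPM in the E6.5 ZW libraries and at 0 in the other 6. The members given here make up only a part of the sums of the first E4.5 pools. The rest lies in members of the list not named here, and the cells it comes from were not tested. Blood cell genes summed to 117 and 65.1 TPM in the first E4.5 pools of ZZ and ZW and to 198 and 317 TPM in the second. At E6.5 they summed to 211 to 528 TPM. Of 4 tested genes, 2 were higher at an unadjusted p under 0.05, or 0 after median-of-ratios scaling. The 2 were the globin genes *HBAD* (1.25, with 1.90 against the first and 0.60 against the second E4.5 pools) and *HBA1* (1.30, with 1.95 against the first and 0.64 against the second E4.5 pools), both highest in the first E6.5 ZW pool. The 9 endothelial genes in the table summed to 36.6 and 34.7 TPM in the first E4.5 pools of ZZ and ZW and to 12.2 and 19.5 TPM in the second. At E6.5 they summed to 9.97 to 20.5 TPM.

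The direction of many lists turned with the E4.5 pool used as the base. Of the 24 lists, 14 had a median of opposite sign against the first and the second E4.5 pools. Over all tested genes the median was -0.17 against the first and 0.17 against the second. The piRNA, meiotic, glycolysis, ribosomal protein and germ cell identity lists kept their sign, and in each of these 5 except glycolysis the median was farther from 0 against the first pools. FGF and insulin signalling went from -1.42 to 0.30, histone modifiers from -1.14 to 0.32, and the Wnt list from -0.88 to 0.18. Counts of list genes at an unadjusted p under 0.05 also moved after median-of-ratios scaling. The cell cycle list went from 4 higher and 0 lower to 2 and 2. Glycolysis went from 3 higher to 1 and fucosyltransferases from 1 higher to 0. The TGF-beta, BMP and activin list went from 2 lower to 4, and germ cell identity from 3 lower to 4. Oxidative phosphorylation went from 4 higher and 5 lower to 3 and 3. Integrins, cadherins and claudins went from 2 lower to 1, and the immediate early and stress list from 0 lower to 1. The meiotic list kept 5 higher, the piRNA list went from 5 higher to 4, and ribosomal proteins from 20 lower to 18.

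**Figure D5:**
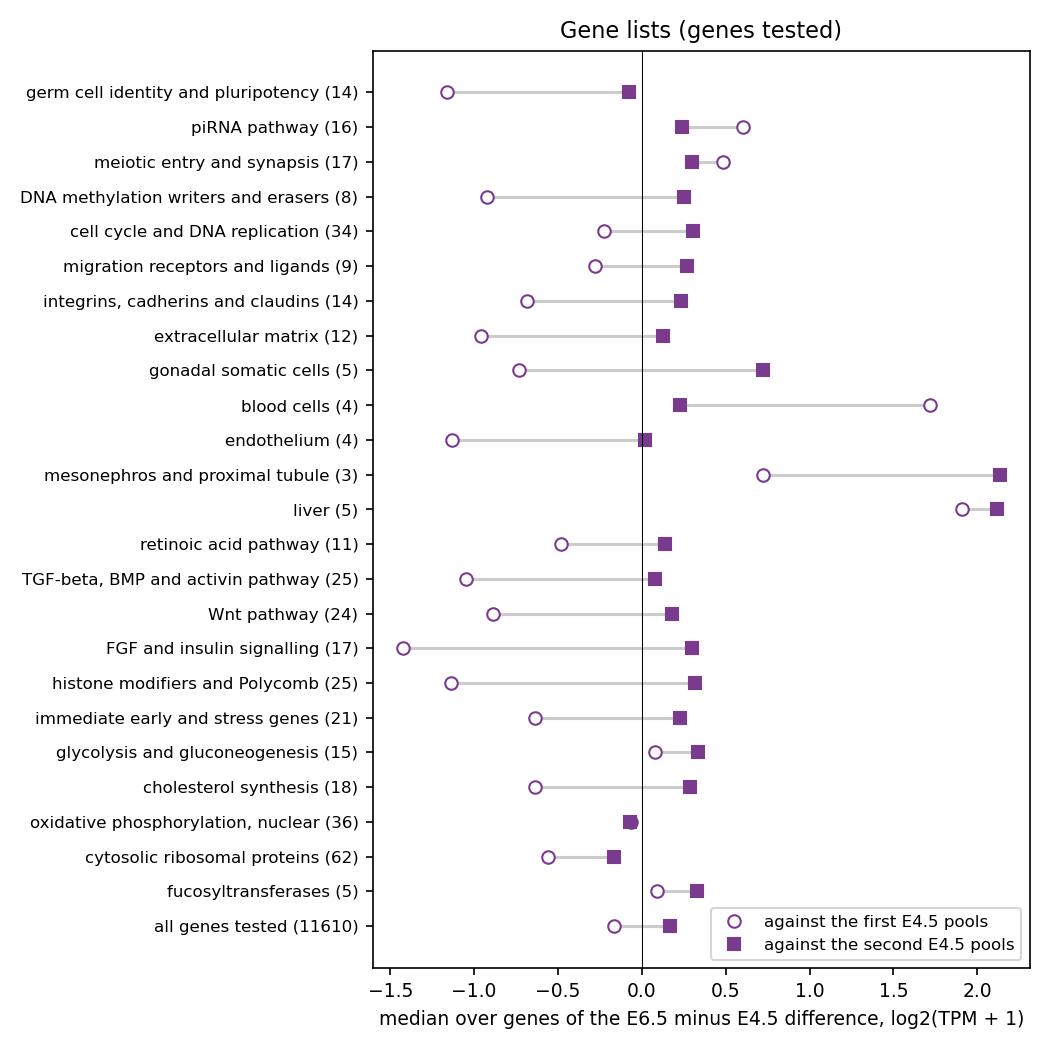
Median over the tested genes of each list (number in brackets) of the E6.5 minus E4.5 difference on the log2(TPM + 1) scale, against the first E4.5 pools (open circles) and against the second E4.5 pools (squares), over both sexes. In 14 of 24 lists the points lie on opposite sides of 0, and for all genes tested they lie at -0.17 and 0.17.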

How the data were processed

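The authors trimmed the reads with Trimmomatic 0.39 and with Trim Galore 0.6.6 and Cutadapt 3.1, aligned them with STAR 2.7.3a to the GRCg6a assembly, counted uniquely mapped reads with featureCounts 2.0.1, and deposited TPM per gene and library. cDNA was made with a SMART-seq kit and libraries with Nextera XT. TPM multiplied by gene length gave whole multiples of a single step for 100% of the values under 2000 reads (tolerance 0.05), from which reads were recovered. On a gene of 1000 bases, 3 reads came to 0.386 to 0.702 TPM, a floor that covers counting error only, since PCR copies are not independent molecules.

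Stages were compared with limma 3.58.1 in R 4.3.3 (lmFit, eBayes with a trend) on log2(TPM + 1) with sex as covariate, and p-values were adjusted over all 11610 genes. The pseudocount understates fold changes of low genes. The fit was checked on simulated data, in which libraries were independent and no pools shared a shift, unlike the first E4.5 pools here. The named genes were the 15 per direction with the smallest p among genes with a log2 difference of 1 or more and no overlap in either sex, since none passed the threshold, the 5 with the smallest interaction p, the 2 with the smallest p in each list, germ cell genes, and genes the study names. Other list members with an unadjusted p under 0.05, *HNF4A*, *ALB* and the markers given with sums were named after their values were seen. Gene lists and members were chosen with earlier results of these data known. A gene among the named genes and lists was left out of both and is not reported here. Alternatives were a pseudocount of 0.1, other filters, median-of-ratios scaling, a replicate block, limma-voom, library weights, no sex term, a fold threshold, all 12 libraries and libraries left out. Figures were drawn with matplotlib 3.10.9. The authors' sex comparisons within a stage were not used here.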

Additional observations from a re-analysis of the deposited data

How the results depend on the processing

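The 0 calls in each direction held in every alternative except those named here. With library weights, 34 genes were called higher and 28 lower, of which 27 and 21 did not overlap in either sex. Both the 34 and the 27 include *RASSF6*, gga-mir-1581 and gga-let-7b. These passed the minimum only or mainly through E6.5, so their calls are not a test. With the replicate number as a block, 1 gene was called lower, *HSPB9* (log2 difference -2.16, adjusted p = 0.021), and it did not overlap in either sex. The block moved the genes at an unadjusted p under 0.05 from 1209 to 2213. Deviations of same-numbered pools from their group means correlated at 0.67 between E4.5 ZZ and E4.5 ZW, 0.41 between E4.5 ZZ and E6.5 ZZ, 0.34 between E4.5 ZW and E6.5 ZZ, 0.013 between E4.5 ZW and E6.5 ZW, -0.092 between E4.5 ZZ and E6.5 ZW and -0.11 between the E6.5 sexes. Not every pair was over 0.1, so the numbers were not taken to pair the libraries in the main fit. Whether some of the pools were paired was not tested. With single libraries left out, 0 to 1 genes were called higher, with the same range for genes that did not overlap. The gene was *FXYD2* (adjusted p = 0.043), without the second E6.5 ZZ pool, in which it was near 0. The numbers of genes without overlap were 954 to 1645 higher and 497 to 1742 lower when 1 library was left out, since fewer libraries have to separate. Without both first E4.5 pools they were 2829 and 1021. Without both second E4.5 pools, chosen after seeing the data, 1916 genes were called higher and 2755 lower, of which 1908 and 2752 did not overlap, 85 genes had a called interaction, and 3031 and 4440 genes did not overlap.

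Of the named genes, those whose direction turned had adjusted p-values above the threshold in each such fit. *DDX4* had 0.016 after median-of-ratios scaling, 0.022 with limma-voom, 0.50 with library weights and 0.31 without both first E4.5 pools, and -0.22 to 0.25 with single libraries left out. *DAZL* had -0.094 with weights, -0.21 without both first pools, and -0.068 to 0.22 with single libraries left out. *KIT* had 0.25 with weights and 0.41 without both first pools, and *RARB* -0.011 and -0.067. Without both first pools, *NANOG* had -0.047, *DNMT3B* 0.048, *MBD3* 0.18, *FN1* 0.14 and *SOX17* 0.18. The cause was not tested. Depth limits genes near the floor of 3 reads, such as the short RNA loci.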
